A study of Mus musculus with 8 samples.

Results

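The genes described here are 10 genes of lipid droplet and triglyceride turnover, taken by symbol from the 46078 genes counted in chronic stroke infarcts of aged mice. They comprise the droplet coat genes *Plin2*, *Plin3* and *Plin4*, the droplet fusion gene *Cidec*, the synthesis genes *Dgat1* and *Dgat2*, the lipase genes *Pnpla2*, *Lipe* and *Mgll*, and the lipase inhibitor gene *Hilpda*. Messenger RNA was sequenced from the infarcts of 8 wild type C57BL/6J males aged 18 months, all of which had undergone DH stroke (closure of the distal middle cerebral artery followed by a period of low oxygen). From 1 week after stroke, 4 animals received subcutaneous phosphate-buffered saline (vehicle) and 4 received 4 g/kg of 2-hydroxypropyl-β-cyclodextrin (HPβCD), a cyclic sugar molecule that can bind cholesterol and other lipids, 3 times per week for 6 weeks. Infarcts were removed at 7 weeks after stroke, and no unoperated or contralateral tissue is part of this comparison.

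Lipid droplets are stores of neutral lipid, mainly triglycerides and cholesterol esters, wrapped in a layer of phospholipid and coat proteins called perilipins. Triglycerides are made by adding fatty acids to glycerol in successive steps, and they are taken apart by lipases that remove the fatty acids one after the other. Droplets are abundant in foamy macrophages, which fill with lipid when they clear myelin and other cell debris, and the comparison asks whether transcripts of this machinery differ between vehicle and HPβCD infarcts. The counts measure transcripts, not droplets or enzyme activity. In whole tissue, a lower value can come from fewer cells of a type or from less RNA per cell, and the counts do not tell these apart.

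The libraries held between 16.6 M and 32.9 M gene counts, with vehicle animal 2 at the upper end and the other 7 at 19.4 M or less. Expression is given as CPM, the counts of a gene scaled to a common library total that was adjusted by its TMM factor. A total of 14736 genes had enough counts to be tested, and 9 of the 10 genes were among them. Vehicle animals 1 and 3 stood apart from the other libraries. Their summed CPM over 10 neuron marker genes was 1460 and 8750, while the other 6 libraries ranged from 13.3 to 111. The pieces were cut out by eye, and values of the genes that rest most on these animals are given with and without them.

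None of the 9 tested genes had an adjusted p under 0.05 in the quasi-likelihood test of edgeR, adjusted over all genes by the Benjamini-Hochberg method, against 1.95% of all genes tested (1.17% higher and 0.774% lower in HPβCD infarcts). *Plin3* came closest, with an adjusted p of 0.0524 in this edgeR test. An unadjusted p under 0.05 was reached by 3 of the 9 genes (*Plin2*, *Plin3* and *Pnpla2*), all with higher values in HPβCD infarcts, against 27.8% of all genes in both directions and 11.8% in this direction. DESeq2, the test used by the study's authors, called 1 of the 9 (*Plin3*), against 17.0% of all genes with an adjusted p in that test and 5.92% that were called higher. The log2 fold change was above 0 in 8 of the 9 genes, against 45.9% of all genes tested, and below 0 in *Dgat2*. The median over the 9 genes was 0.30 on the log2 scale, and the median over all genes tested was -0.05. The vehicle and HPβCD values did not overlap in 3 of the 9 genes (*Plin3*, *Plin4* and *Pnpla2*), against 16.8% of all genes.

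**Figure D1:**
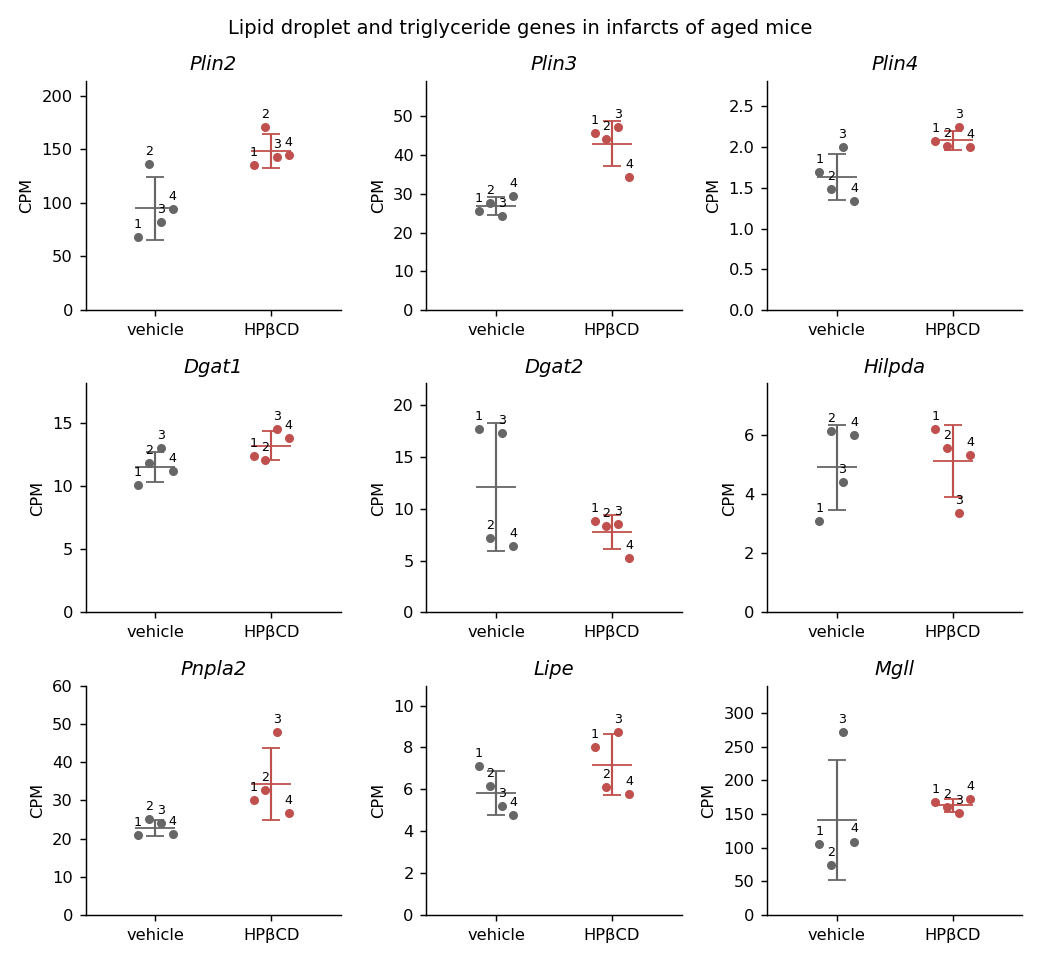
Each panel plots the CPM of 1 gene in 4 vehicle and 4 HPβCD infarcts, with the animal number above each point and bars for the mean and SD. *Plin3* lies between 24.2 and 29.5 CPM in vehicle and between 34.4 and 47.3 CPM in HPβCD infarcts, whereas *Dgat2* and *Mgll* are spread widely within the vehicle group.

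Among the coat genes, *Plin2* (ENSMUSG00000028494, GRCm38 chromosome 4, 86648386 to 86670060, minus strand) encodes the main perilipin of droplets outside fat tissue. It was at 67.7, 136, 82.0 and 94.4 CPM in vehicle animals 1 to 4 and at 135, 171, 143 and 145 CPM in HPβCD animals 1 to 4. Vehicle animal 2, which had the deepest library, slightly exceeded the lowest HPβCD animal, so the groups overlapped in 1 animal. Mean levels were 94.9 ± 29.2 and 149 ± 15.8 CPM (SD, n = 4 each), and the log2 fold change was 0.65 (SE 0.21, 95% interval 0.16 to 1.13; edgeR adjusted p = 0.100). DESeq2 gave an adjusted p of 0.0558 for *Plin2*. Without vehicle animal 2, the log2 fold change was 0.87 and passed by edgeR (adjusted p = 0.0431). In this fit edgeR called 556 of all genes, against 287 with all libraries. Without vehicle animals 1 and 3, which had the lowest *Plin2* values, the log2 fold change was 0.39 (edgeR adjusted p = 0.247).

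*Plin3* (ENSMUSG00000024197, chromosome 17, 56277476 to 56292873, minus strand) encodes a perilipin that is held in the cytosol and moves onto new droplets. Vehicle animals 1 to 4 had 25.6, 27.7, 24.2 and 29.5 CPM, and HPβCD animals 1 to 4 had 45.8, 44.1, 47.3 and 34.4 CPM. All HPβCD values thus lay above all vehicle values, with HPβCD animal 4 nearest to the vehicle group. The means were 26.7 ± 2.34 and 42.9 ± 5.82 CPM (SD, n = 4 each), with a log2 fold change of 0.68 (SE 0.15, 95% interval 0.35 to 1.01). This difference passed by DESeq2 (log2 fold change 0.70, adjusted p = 0.00154) and missed by edgeR, as given above. It also passed by edgeR without vehicle animal 3 (adjusted p = 0.0473) or HPβCD animal 4 (adjusted p = 0.0357). In these fits edgeR called 629 and 353 of all genes, against 287 with all libraries. It did not pass by edgeR when any other single library was left out (adjusted p up to 0.180). Without vehicle animals 1 and 3 together the log2 fold change of *Plin3* was 0.60 (edgeR adjusted p = 0.112), close to the value with all animals.

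*Plin4* (ENSMUSG00000002831, chromosome 17, 56100591 to 56109803, minus strand) encodes a perilipin of small, newly formed droplets and was barely expressed. It had between 25 and 52 counts per library. Values were 1.70, 1.49, 2 and 1.34 CPM in vehicle animals and 2.07, 2.02, 2.25 and 2 CPM in HPβCD animals. The highest vehicle value and the lowest HPβCD value are equal to 3 digits, so the separation of the groups is smaller than counting error at this depth. The log2 fold change of 0.36 (SE 0.22, 95% interval -0.15 to 0.86) did not pass (edgeR adjusted p = 0.331).

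*Cidec* (ENSMUSG00000030278, chromosome 6, 113424634 to 113435760, minus strand), which encodes the protein that fuses droplets in fat cells, could not be tested. It had 8 counts in HPβCD animal 3 (0.429 CPM) and 0 counts in each of the other 7 libraries. A count of 0 allows a level of up to 0.0861 to 0.184 CPM in these libraries, counting error only. The other coat of fat cell droplets, *Plin1*, had at most 0.0538 CPM in any library. The defining fat cell markers were likewise at or near 0: *Lep* and *Adig* had no count in any library, and *Adipoq* ranged from 0 to 0.0538 CPM in vehicle and from 0 to 0.537 CPM in HPβCD infarcts, with its highest value in the library that held the *Cidec* counts. The summed CPM over 10 fat cell markers was 3.21 to 20.5 in vehicle infarcts and 1.95 to 3.97 after HPβCD, and its highest value, in vehicle animal 3, came mainly from *Thrsp* (18.2 CPM). Of skeletal muscle, which also uses droplets, the defining marker *Ckm* was at 0 in 7 libraries and at 0.121 CPM in vehicle animal 3. The 10 muscle markers summed to between 2.42 and 11.1 CPM, again highest in vehicle animal 3.

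The synthesis genes *Dgat1* and *Dgat2* encode unrelated enzymes that both carry out the last step of triglyceride synthesis. *Dgat1* (ENSMUSG00000022555, chromosome 15, 76502015 to 76511953, minus strand) was steady, at 10.1, 11.8, 13 and 11.2 CPM in vehicle and 12.4, 12.1, 14.5 and 13.8 CPM in HPβCD animals. Its log2 fold change was 0.19 (SE 0.15, 95% interval -0.14 to 0.53; edgeR adjusted p = 0.439). The values of the groups overlapped through vehicle animal 3.

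*Dgat2* (ENSMUSG00000030747, chromosome 7, 99153658 to 99182719, minus strand) was the only tested gene with a lower mean in HPβCD infarcts. Vehicle animals 1 and 3 had 17.7 and 17.3 CPM, whereas vehicle animals 2 and 4 had 7.18 and 6.45 CPM. HPβCD animals 1 to 4 had 8.79, 8.39, 8.59 and 5.27 CPM, of which 3 were above vehicle animals 2 and 4 and 1 was below them, and all were below vehicle animals 1 and 3. The log2 fold change was -0.64 (SE 0.37, 95% interval -1.49 to 0.20; edgeR adjusted p = 0.296). Without vehicle animals 1 and 3 it was 0.20 (edgeR adjusted p = 0.657), the opposite direction. The lower mean in HPβCD infarcts therefore rested on the 2 vehicle libraries with high neuron markers. Those markers were lower in HPβCD infarcts in 9 of 9 tested, against 7965 of all 14736 genes tested. By edgeR 0 of them were called, against 1.95% of all genes, and 9 had an unadjusted p under 0.05, against 27.8%. Their sums in vehicle animals 2 and 4 (63.1 and 29.3 CPM) lay within the HPβCD range of 13.3 to 111 CPM. The part of these markers in the *Dgat2* values was not tested.

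The lipase genes follow the order in which a triglyceride is taken apart. *Pnpla2* (ENSMUSG00000025509, chromosome 7, 141455198 to 141460743, plus strand) encodes adipose triglyceride lipase, which removes the first fatty acid. Vehicle animals 1 to 4 had 21, 25.2, 24.1 and 21.1 CPM, and HPβCD animals 1 to 4 had 30.1, 32.7, 48.0 and 26.6 CPM. The groups did not overlap, and HPβCD animal 3 was the highest by a wide margin. Means were 22.9 ± 2.12 and 34.4 ± 9.44 CPM (SD, n = 4 each), with a log2 fold change of 0.59 (SE 0.20, 95% interval 0.14 to 1.04; edgeR adjusted p = 0.105; DESeq2 adjusted p = 0.0550). Without HPβCD animal 3 the log2 fold change fell to 0.39 (edgeR adjusted p = 0.168), whereas without vehicle animals 1 and 3 it stayed at 0.59 (edgeR adjusted p = 0.207).

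*Lipe* (ENSMUSG00000003123, chromosome 7, 25379527 to 25398710, minus strand) encodes hormone-sensitive lipase, which acts mainly on the diglyceride left by the first step. It had 7.13, 6.14, 5.21 and 4.79 CPM in vehicle and 8.04, 6.13, 8.75 and 5.77 CPM in HPβCD animals, with overlap between the groups. The log2 fold change of 0.30 (SE 0.22, 95% interval -0.19 to 0.79) did not pass (edgeR adjusted p = 0.402). Of its exon length, 15.6% overlaps the gene *4732471J01Rik* on the opposite strand, and the strand option of the counting is not given in the sources used here, so this value is uncertain.

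*Mgll* (ENSMUSG00000033174, chromosome 6, 88724412 to 88828360, plus strand) encodes monoglyceride lipase, which completes the breakdown and, in the brain, also degrades the endocannabinoid arachidonoylglycerol. Vehicle animals 1 to 4 had 106, 74.4, 272 and 109 CPM, and HPβCD animals had 167, 160, 151 and 172 CPM. Vehicle animal 3 was above every HPβCD animal, and the other 3 vehicle animals were below all of them. With all animals the log2 fold change was 0.21 (SE 0.36, 95% interval -0.62 to 1.04; edgeR adjusted p = 0.753). Without vehicle animal 3, *Mgll* had a log2 fold change of 0.75 (SE 0.16; adjusted p = 0.0379 by edgeR). In this fit edgeR called 629 of all genes, against 287 with all libraries. Without vehicle animals 1 and 3 together the log2 fold change of *Mgll* was 0.84 (edgeR adjusted p = 0.0577). Without vehicle animal 2, the lowest, it was 0.0054 (edgeR adjusted p = 0.993), and it was 0.10 and 0.12 without vehicle animal 1 or 4 (edgeR adjusted p = 0.919 and 0.887). Vehicle animal 3 had the highest neuron marker sum of all libraries, and the part of that in its *Mgll* value was not tested.

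**Figure D2:**
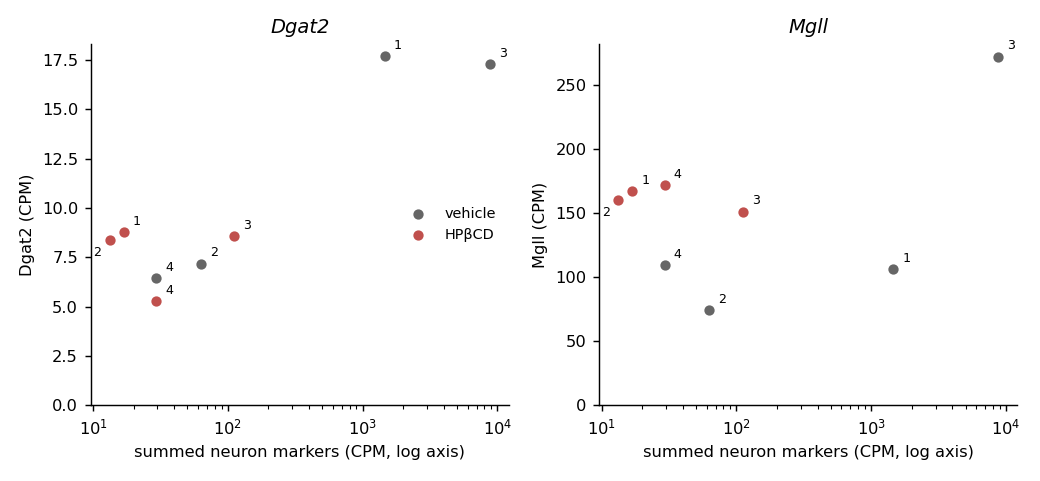
Each point is 1 infarct, labelled with its animal number, with the summed CPM of 10 neuron markers on a log axis and the CPM of *Dgat2* (left) or *Mgll* (right) on the vertical axis. Vehicle animals 1 and 3, at 1460 and 8750 CPM of neuron markers, hold the highest *Dgat2* values, and vehicle animal 3 alone holds the highest *Mgll* value.

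*Hilpda* (ENSMUSG00000043421, chromosome 6, 29272488 to 29275446, plus strand) encodes a small droplet protein that is induced by hypoxia and inhibits the lipase encoded by *Pnpla2*. It was at 3.11, 6.14, 4.42 and 6.02 CPM in vehicle and at 6.21, 5.58, 3.38 and 5.33 CPM in HPβCD animals. The groups covered nearly the same range. The log2 fold change was 0.05 (SE 0.28, 95% interval -0.59 to 0.70; edgeR adjusted p = 0.923), and it turned negative with scaling by library totals alone (-0.03). It was -0.235 without vehicle animals 1 and 3 (edgeR adjusted p = 0.622) and -0.348 with the neuron markers as a covariate (edgeR adjusted p = 0.519). Of 21 alternative fits, 6 gave a value below 0. The interval leaves room for a difference of up to about 0.70 in the upward direction.

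**Figure D3:**
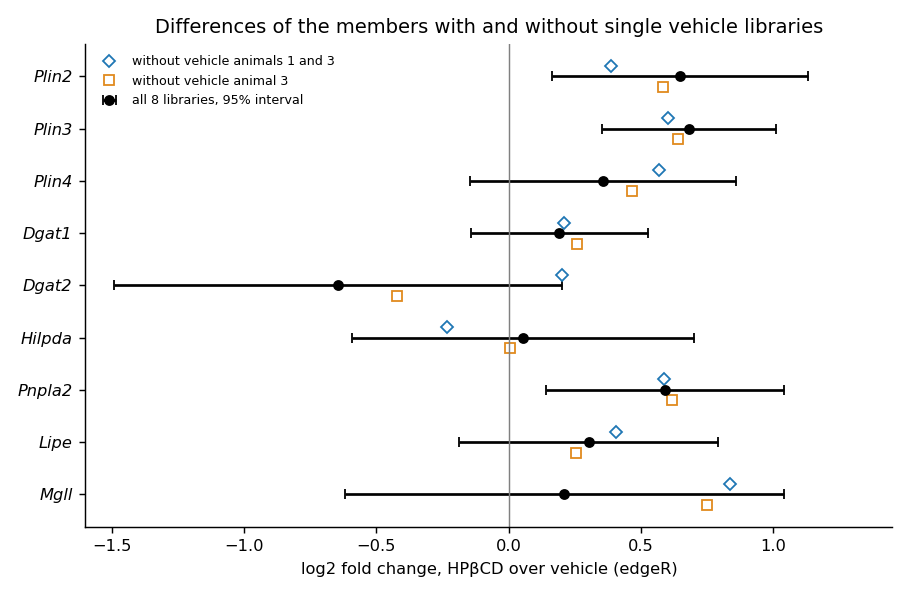
Points and bars give the edgeR log2 fold change of each tested gene with its 95% interval over all 8 libraries, diamonds the value without vehicle animals 1 and 3, and squares the value without vehicle animal 3. *Plin3* stays between 0.60 and 0.68, whereas *Dgat2* moves from -0.64 to 0.20 and *Mgll* from 0.21 to 0.84.

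The spread between animals differed among the genes. In vehicle infarcts the coefficient of variation was 63.3% for *Mgll*, 50.8% for *Dgat2* and 30.8% for *Plin2*, but 8.75% for *Plin3* and 9.26% for *Pnpla2*. In HPβCD infarcts it was 5.74%, 21.5% and 10.6% for the first 3 genes, and 13.6% and 27.4% for *Plin3* and *Pnpla2*. *Hilpda* was spread widely in both groups, at 29.3% in vehicle and 23.8% in HPβCD infarcts.

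To show the sequences before the starts of the genes with the clearest separation, promoters were taken from RefSeq on GRCm38.p6, which had entries for 8 of the 10 genes (12 start sites). The entries did not include *Dgat1* and *Dgat2*. The 250 bases before each start were searched on both strands for GGGCGG, the GC box bound by Sp1 family factors, and for ACGTG, the core of the hypoxia response element. The nuclear receptor elements DR1 and DR4, in which the half-site AGGTCA is repeated, and TCACGTGA, bound by TFEB, were searched in the same way and occurred in 0 of the 12 windows, against 0.0335%, 0.0152% and 0.785% of all windows. Matches are letters in a window and do not show that a factor binds there. GGGCGG was present in 5 of the 12 windows (*Plin3*, *Pnpla2*, *Lipe*, *Mgll* and *Hilpda*), against 32.7% of all 32851 windows. The last 120 bases before the starts of *Plin3* (chr17:56290512-56290631, minus strand) and *Pnpla2* (chr7:141455068-141455187, plus strand) are printed 5′ to 3′ with GGGCGG or its reverse complement in capitals. The closing pair of matches in *Plin3* shares a base. The *Plin3* stretch lies before a RefSeq start that is inside the GENCODE span of the gene given above (56277476 to 56292873). It holds 0 bases of annotated exons.
Plin3: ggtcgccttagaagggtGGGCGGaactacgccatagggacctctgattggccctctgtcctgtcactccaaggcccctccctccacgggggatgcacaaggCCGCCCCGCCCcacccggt
Pnpla2: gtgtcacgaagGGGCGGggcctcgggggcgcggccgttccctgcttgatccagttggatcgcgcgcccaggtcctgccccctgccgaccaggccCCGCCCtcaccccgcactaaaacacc

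ACGTG was present in 4 of the 12 windows, those of *Lipe*, *Mgll* (both starts) and *Hilpda*, against 16.6% of all windows. The CACGTG of 1 *Lipe* and 1 *Mgll* window reads as ACGTG on both strands and was counted in this number. The match in *Hilpda* is shown because this gene is named for its response to hypoxia. It lies before the downstream one of its RefSeq starts, within an annotated exon of the longer transcript, in the 30 bases at chr6:29272571-29272600 (plus strand), with ACGTG in capitals.
Hilpda: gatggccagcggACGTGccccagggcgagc

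Levels were compared between genes as CPM per kb of exon, over all 8 libraries. *Plin2* was the highest, at 34.7 ± 10.2 CPM per kb (SD, n = 8), above 92.3% of tested genes on this scale, followed by *Mgll* at 29.8 ± 11.8 CPM per kb. These did not differ beyond their spread, since *Plin2* was the higher one in 6 of 8 libraries with a mean log2 gap of 0.25 ± 0.73 (SD). *Pnpla2* and *Plin3* followed at 9.48 ± 2.92 and 9.19 ± 2.53 CPM per kb and were indistinguishable, each being the higher in 4 of 8 libraries. *Hilpda*, *Dgat1* and *Dgat2* came next, at 4.55 ± 1.12, 4.04 ± 0.46 and 3.23 ± 1.55 CPM per kb. The order within these 3 varied between libraries, with *Hilpda* above *Dgat1* in 5 of 8 and *Dgat1* above *Dgat2* in 6 of 8. *Lipe* (1.10 ± 0.23 CPM per kb) and *Plin4* (0.32 ± 0.05 CPM per kb) lay below these in all 8 libraries. *Plin4* was above only 4.97% of tested genes. This order is that of the means over both groups. In the vehicle means, *Mgll* (27.7 CPM per kb) lay above *Plin2* (27.0 CPM per kb), and *Dgat2* (3.94 CPM per kb) above *Dgat1* (3.77 CPM per kb).

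**Figure D4:**
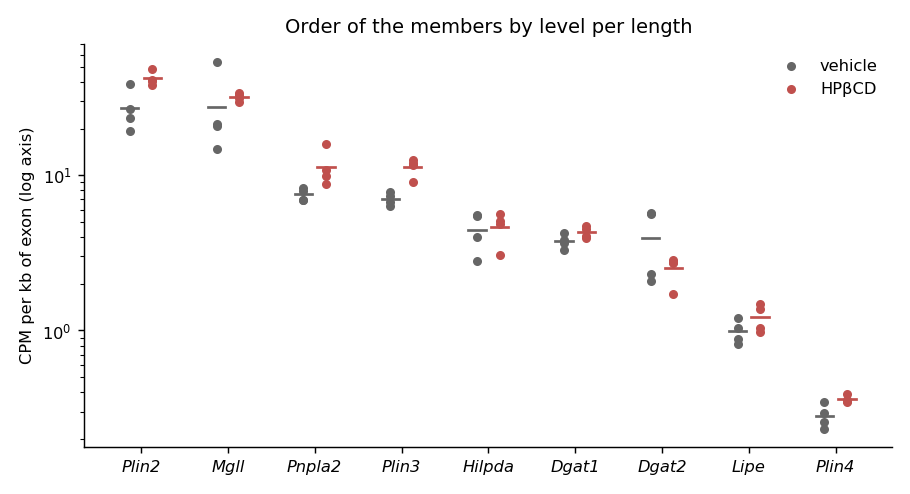
The level of each gene in CPM per kb of exon is plotted on a log axis for 4 vehicle and 4 HPβCD infarcts, with a short line at each group mean, in the order of the mean over all 8 libraries of both groups. The order runs from *Plin2* at 34.7 to *Plin4* at 0.32 CPM per kb, and *Cidec*, with counts in 1 library only, is left out.

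Ratios of 2 genes within a library do not depend on scaling between libraries, and 5 such ratios were compared by an exact two-sided permutation test over the 70 assignments of the 8 libraries. The smallest p this design allows is 0.0286. The mean count ratio of *Plin2* to *Plin3* was 3.54 in vehicle infarcts, where it ran from 2.65 to 4.90, and 3.52 after HPβCD (log2 difference 0.01, exact permutation p = 1). The sign of this difference turned when some libraries were left out (-0.19 without vehicle animals 1 and 3). The ratio of *Dgat2* to *Dgat1* was 1.76, 0.608, 1.33 and 0.574 in vehicle and 0.712, 0.695, 0.593 and 0.383 in HPβCD animals (log2 difference -0.71, exact permutation p = 0.257). *Dgat2* counts therefore exceeded those of *Dgat1* only in vehicle animals 1 and 3 among the 8 libraries. Without these animals the log2 difference was -0.03 (exact permutation p = 0.933). *Hilpda* relative to *Pnpla2*, an inhibitor relative to its lipase, differed by -0.48 (exact permutation p = 0.314). Values of *Lipe* relative to *Pnpla2* and of *Plin4* relative to *Plin2* differed by -0.26 and -0.32 (exact permutation p = 0.257 and 0.371). After Benjamini-Hochberg adjustment over the 5 ratios, the p-values of these exact permutation tests were 0.464 for 4 of them and 1 for *Plin2* to *Plin3*.

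Further genes of the pathway were taken from 5 lists of 69 genes in all, of which 56 were tested. By edgeR 0 of the 56 passed, against 1.95% of all genes tested, and 18 had an unadjusted p under 0.05, against 27.8%. The groups did not overlap in 12, against 16.8% of all genes. DESeq2 called 12 genes of these lists, 8 higher and 4 lower in HPβCD infarcts, against 17.0% of all genes in both directions. The median log2 fold change was 0.38 for lipolysis and its regulators, 0.26 for droplet coat and assembly, 0.01 for fatty acid uptake and activation, -0.05 for the hypoxia response and -0.09 for glycerolipid synthesis.

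In the lipolysis list, 6 of 8 tested genes were higher and 2 lower, with 4 at an unadjusted p under 0.05, against 45.9% of all genes higher and 27.8% at such a p. Its highest gene, *Lipa*, encodes lysosomal acid lipase, which breaks down lipid delivered to lysosomes. *Lipa* was at 581, 955, 499 and 843 CPM in vehicle and at 1370, 1410, 1280 and 1390 CPM in HPβCD animals. These groups lay well apart, with a log2 fold change of 0.92 (edgeR adjusted p = 0.0643; DESeq2 adjusted p = 0.00343), which was 0.61 without vehicle animals 1 and 3 (edgeR adjusted p = 0.0827). *Abhd12* and *Daglb*, which encode a lipase of lysophospholipids and monoglycerides and a diglyceride lipase, had log2 fold changes of 0.35 and 0.42 (edgeR adjusted p = 0.137 and 0.115).

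The direct regulators of the lipase encoded by *Pnpla2* were singled out after their values were seen. *Abhd5*, which encodes its coactivator, was at 44.1, 51.7, 37.8 and 59.2 CPM in vehicle and at 89.1, 79.2, 70.4 and 73.7 CPM in HPβCD animals. The groups did not overlap, as for *Pnpla2* itself (log2 fold change 0.70, SE 0.17; edgeR adjusted p = 0.0624; DESeq2 adjusted p = 0.00635). *G0s2*, which encodes an inhibitor, had mean levels of 1.16 ± 0.31 and 1.54 ± 0.61 CPM (SD, n = 4 each), with an edgeR adjusted p of 0.491. *Dagla*, which encodes the main enzyme that makes arachidonoylglycerol in neurons, and *Abhd6*, which encodes another enzyme that degrades it, were also chosen in this way, as neighbours of *Mgll*. Both were highest in vehicle animal 3, at 65.2 and 43.0 CPM, and next highest in vehicle animal 1, at 26 and 16.8 CPM. Their log2 fold changes of -1.22 and -0.81 became 0.28 and 0.12 without vehicle animals 1 and 3, and none of these 4 values passed by edgeR (adjusted p from 0.230 to 0.753).

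Of the list for droplet coat and assembly, 8 of 9 tested genes were higher in HPβCD infarcts, against 45.9% of all genes, and 3 of the 9 had an unadjusted p under 0.05, against 27.8%. The 3 genes with the highest CPM had log2 fold changes of 0.11 (*Rab18*, a small GTPase found on droplets), 0.34 (*Hsd17b11*, a droplet-bound dehydrogenase) and 0.16 (*Spg20*, which encodes spartin). Their edgeR adjusted p-values were 0.725, 0.177 and 0.548. *Bscl2*, which encodes seipin at the site where droplets form, and *Tmem159*, which encodes its partner, were singled out after the values were seen. They had log2 fold changes of 0.51 and 0.61 (edgeR adjusted p = 0.0923 and 0.0682), and DESeq2 called both (adjusted p = 0.0340 and 0.0103).

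In glycerolipid synthesis, 5 of 11 tested genes were higher and 6 lower. *Gpam*, which encodes the mitochondrial enzyme of the first step, was at 165, 89.8, 72.0 and 127 CPM in vehicle and at 42.3, 49.3, 65.1 and 58.6 CPM in HPβCD animals, with no overlap (log2 fold change -1.07; edgeR adjusted p = 0.0650; DESeq2 adjusted p = 0.00644). *Lpin1*, which encodes a phosphatase that makes diglyceride, lay the other way, at 65.0 ± 10.8 and 97.8 ± 7.46 CPM (SD, n = 4 each; log2 fold change 0.59; edgeR adjusted p = 0.0658; DESeq2 adjusted p = 0.0118). *Agpat3*, an acyltransferase gene, had a log2 fold change of -0.33 that became 0.43 without vehicle animals 1 and 3. Other genes of the same families lay in both directions, with log2 fold changes of -0.23 for *Gpat3*, 0.19 for *Gpat4*, -0.19 for *Lpin2* and 0.45 for *Lpin3*, none called by edgeR (adjusted p from 0.369 to 0.643). In the family of *Agpat3*, *Agpat2* was at 0.76 (edgeR adjusted p = 0.0801; DESeq2 adjusted p = 0.0178) and was singled out after the values were seen. *Agpat1*, *Agpat4* and *Agpat5* were at 0.19, -0.09 and -0.23.

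Of the genes for fatty acid uptake and activation, 8 of 15 tested genes were higher and 7 lower. *Fabp5*, which encodes a fatty acid carrier, had a mean of 1430 ± 517 CPM in vehicle infarcts and of 3990 ± 1660 CPM after HPβCD (SD, n = 4 each; log2 fold change 1.48; edgeR adjusted p = 0.0688; DESeq2 adjusted p = 0.00185). The lipoprotein lipase gene *Lpl* and the fatty acid receptor gene *Cd36* had log2 fold changes of -0.21 and 0.54 (edgeR adjusted p = 0.743 and 0.379). The value of *Cd36* was 1.02 without vehicle animal 2 (edgeR adjusted p = 0.0534) and 0.07 without vehicle animals 1 and 3 (edgeR adjusted p = 0.888), and that of *Lpl* was -0.64 without the latter (edgeR adjusted p = 0.179). Without vehicle animal 3, *Fabp5* passed by edgeR (log2 fold change 1.70, adjusted p = 0.0473), in a fit that called 629 of all genes. In the hypoxia list, 6 of 13 tested genes were higher and 7 lower. Its 3 genes with the highest CPM, *Slc2a1*, *Ndrg1* and *Ldha*, had log2 fold changes of -0.07, 0.17 and 0.11 (edgeR adjusted p from 0.563 to 0.889). The groups did not overlap in 3 genes of this list, against 16.8% of all genes. These, singled out after their values were seen, were *P4ha1* (0.51), *Car9* (0.89) and *Pdk1* (-0.34). Their edgeR adjusted p-values were 0.0627, 0.174 and 0.146, and DESeq2 called *P4ha1* (adjusted p = 0.00469).

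The summed foamy macrophage and fibroblast markers were higher in HPβCD infarcts, the direction of the values of *Plin2*, *Plin3* and *Pnpla2*. Such sums follow their highest genes and do not count cells or droplets. *Fabp5*, *Lpl* and *Cd36* are in both the foamy macrophage list and the list for fatty acid uptake. The summed CPM of 10 foamy macrophage markers was 7700 to 14000 in vehicle infarcts and 17300 to 29300 after HPβCD. Of these markers, 9 of 10 were higher, against 45.9% of all genes tested. By edgeR 1 was called higher (*Gpnmb*, adjusted p = 0.0483), against 1.17% of all genes. *Gpnmb* was the largest part of the sum, with means of 4150 and 10800 CPM. The list was mixed, with log2 fold changes of 0.09 for *Spp1*, 0.08 for *Msr1* and -0.21 for *Lpl* (edgeR adjusted p = 0.896, 0.882 and 0.743). The 10 fibroblast markers summed to 2930 to 6910 CPM in vehicle infarcts and to 9600 to 10700 CPM after HPβCD. Of these, 9 of 9 tested genes were higher and 2 were called higher, against the same shares of all genes. The 2 called were *Col1a1* and *Col1a2* (edgeR adjusted p = 0.0483 and 0.0462). Endothelial markers covered 682 to 881 and 816 to 1220 CPM, mural cell markers 369 to 579 and 547 to 863 CPM, microglial markers 590 to 1160 and 814 to 1250 CPM, and erythroid markers 14.1 to 33.8 and 32.0 to 35.7 CPM. Astrocyte markers ran the other way, with 2780 to 10200 CPM in vehicle infarcts and 988 to 2870 CPM after HPβCD, and so did oligodendrocyte markers (1730 to 5510 and 398 to 2330 CPM). In these further lists edgeR called 1 mural cell marker higher (*Pdgfrb*). It called 1 astrocyte marker (*Fgfr3*) and 1 microglial marker (*Siglech*) lower, against 0.774% of all genes called lower. No gene of these lists was at 0 in every library. The part of these cell types in the values of the droplet genes was not tested.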

How the data were processed

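Infarct RNA of 4 vehicle and 4 HPβCD animals was compared. The authors deposited unnormalized gene counts, with 1 table for each animal: the study's methods and labels name bcl2fastq 2.19, Trimmomatic 0.32, STAR 2.5.2b on GRCm38 and htseq-count, applied to paired 75 bp reads of stranded poly(A) libraries. The 5 lines of unassigned reads, 26.6% to 36.6% of a library, were left out. Reads with several alignments stayed unassigned, which lowers counts of genes with close copies. Gene symbols matched 45143 of 46078 identifiers, and coordinates and exon lengths are from GENCODE M21 (GRCm38). Groups came from the sample titles. The labels number the libraries without stating that each is a separate animal; they were taken as such, and otherwise the p-values measure only the spread between libraries.

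edgeR 4.0.16 (R 4.3.3) was fitted to all genes kept by filterByExpr, with TMM factors, a robust quasi-likelihood F test and Benjamini-Hochberg adjustment, and calls at an adjusted p under 0.05. Each SE was the absolute log2 fold change over the root of F. Ratios used counts plus 0.5. DESeq2 1.42.0 and limma 3.58.1 (voom) were alternatives, with other scalings, filters, a block, a neuron marker covariate, thinning and omitted libraries. The fits were tested on simulated data. No 2 libraries agreed within sampling noise (lowest chi-square per degree of freedom 18.9). The labels give no batch, so no within-batch value was possible. Replicate numbers did not pair the libraries.

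The 10 genes, the lists and the libraries doubted were chosen with earlier results of these data known. All 10 genes are named. From other lists the genes called by edgeR are named or, where none was, the 3 with the highest mean CPM; others named were chosen after their values were seen. Marker lists give summed CPM.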

Additional observations from a re-analysis of the deposited data

Results flagged for a closer look

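Each group of 4 values of a named gene or ratio was searched for an animal far from the other 3 by Dixon's criterion. This was so in 3 of 76 groups; about 3.8 (1 in 20) would meet the criterion by chance. HPβCD animal 4 was lowest in its group for *Dgat2*, at 2.40 log2 CPM against 3.07 to 3.14, and for *Tmem159*, at 4.14 against 4.47 to 4.52. Vehicle animal 3 was lowest for *Ndrg1*, at 6.92 log2 CPM against 7.47 to 7.56. The vehicle value of *Mgll* in animal 3, although outside the HPβCD range, did not meet the criterion.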

How the results depend on the processing

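Across the 21 alternative fits, *Plin2*, *Plin3*, *Plin4*, *Dgat1*, *Pnpla2*, *Lipe* and *Mgll* stayed above 0. The adjusted p ranged from 0.00154 to 0.187 for *Plin3*, from 0.0275 to 0.372 for *Plin2*, from 0.0298 to 0.230 for *Pnpla2* and from 0.0271 to 0.993 for *Mgll*. Of the members, 1 was called by DESeq2, 4 by limma-voom with sample quality weights (*Plin2*, *Plin3*, *Pnpla2* and *Mgll*) and 0 to 2 when single libraries were left out (1 without vehicle animal 2, 2 without vehicle animal 3, 1 without HPβCD animal 4). Of the related genes, 12, 18 and 0 to 4 were called in these fits, and 1 without vehicle animals 1 and 3. All genes called numbered 287 by edgeR, 2899 by DESeq2, 3253 by the weighted limma-voom fit, 65 by unweighted limma-voom, 98 without robust moderation, 57 with upper quartile scaling, 11 with library totals, 2 with the neuron covariate and 0 to 629 when 1 library was left out. Non-overlapping members numbered 5 without vehicle animals 1 and 3, and 3 to 5 without single libraries, the 5 being without vehicle animal 3. The share of 16.8% of all genes holds for all 8 libraries, and none was computed for the smaller sets. Fewer libraries make it easier for groups not to overlap, so the higher counts are not a result about the members. These counts without libraries, and the count of 2 under library totals, were chosen after the data had been seen.

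Log2 fold changes with a changed sign under sample weights were 0.00898 for *Dgat2*, -0.0091 for *Hilpda*, -0.0259 for *Rab18*, 0.22 for *Agpat3*, 0.0943 for *Slc2a1* and 0.00049 for *Dagla*. With the neuron covariate they were 0.18 for *Dgat2*, -0.35 for *Hilpda*, -0.15 for *Rab18*, -0.0154 for *Spg20*, 0.54 for *Agpat3*, 0.18 for *Slc2a1*, 0.19 for *Abhd6* and 0.41 for *Dagla*. Without vehicle animals 1 and 3 they were 0.20 for *Dgat2*, -0.23 for *Hilpda*, -0.0496 for *Rab18*, 0.43 for *Agpat3*, 0.19 for *Slc2a1*, 0.12 for *Abhd6* and 0.28 for *Dagla*, and the log2 ratios of *Plin2* to *Plin3* and *Plin4* to *Plin2* differed by -0.19 and 0.17. *Hilpda* was at -0.0297 with library totals. When single libraries were left out, the values ran from -0.10 to 0.21 for *Hilpda*, from -0.51 to 0.17 for *Agpat3*, from -0.42 to 0.20 for *Lpl*, from -0.27 to 0.11 for *Slc2a1* and from -0.11 to 0.18 for the ratio of *Plin2* to *Plin3*. Using the longest transcript as the length moved *Plin2*, *Dgat1* and *Lipe* to 64.5, 6.54 and 1.75 CPM per kb. The cause of these changes was not tested.

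With the replicate number as a block, 0 members, 0 related genes and 9 of all genes were called. Same-numbered libraries correlated in their deviations from the group means at -0.257, 0.244, 0.329 and 0.0975 for numbers 1 to 4, and 2 of the 4 correlated best with their own number, so the numbers were not treated as pairs. The depth limits *Plin4* (25 to 52 counts) and *Cidec* (8 counts in 1 library) most.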

Other observations

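In the list of fatty acid uptake and activation, which had 8 of 15 tested genes higher and 7 lower, 3 genes with lower values in HPβCD infarcts were called by DESeq2 and not by edgeR. They were chosen after their values were seen and do not stand for the list: *Acsl1*, *Acsl4* and *Acsl5* had log2 fold changes of 0.01, -0.09 and 0.34. *Acsl6*, which encodes an acyl-CoA synthetase of neural cells, was at 96.1, 33.4, 166 and 48.1 CPM in vehicle and at 9.83, 10.5, 27.3 and 20.2 CPM in HPβCD animals (log2 fold change -2.34, SE 0.58; edgeR adjusted p = 0.0686; DESeq2 adjusted p = 0.000426). All HPβCD values lay below all vehicle values. Without vehicle animals 1 and 3 the log2 fold change was -1.25 (edgeR adjusted p = 0.162), and with the neuron covariate -1.13. Without vehicle animal 2 it was -2.60 and passed by edgeR (adjusted p = 0.0467), in a fit that called 556 of all genes. *Acsl3*, which encodes the synthetase that sits on growing droplets, was at 185, 112, 226 and 134 CPM in vehicle and at 59.8, 71.2, 109 and 95.3 CPM in HPβCD animals (log2 fold change -0.97, SE 0.27; edgeR adjusted p = 0.0775; DESeq2 adjusted p = 0.0148), again without overlap. Its log2 fold change was -0.53 without vehicle animals 1 and 3 (edgeR adjusted p = 0.222) and -0.45 with the neuron covariate. The carrier gene *Fabp7*, known from astrocytes and their precursors, was at 42.1 ± 19.6 and 16.8 ± 4.62 CPM (SD, n = 4 each; log2 fold change -1.32; edgeR adjusted p = 0.0801; DESeq2 adjusted p = 0.0105). It passed by edgeR without vehicle animal 3 (adjusted p = 0.0229, with 629 of all genes called) and without vehicle animals 1 and 3 (adjusted p = 0.0443, with 202 called). The summed CPM of 10 astrocyte markers was 7800, 2780, 10200 and 4220 in vehicle and 988, 1280, 2870 and 2030 in HPβCD animals, and its part in these values was not tested.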
